A study of Mus musculus with 16 samples.

Results

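The effect of prenatal housing common to cortex and hippocampus was measured by setting all 8 fetal brain libraries labelled enriched environment (EE) against all 8 labelled standard habitation (SH). Libraries were chosen by their labels, with no measured value in the choice, and they were all 16 of the 16 in the series. The EE and SH sides each held 5 cortex and 3 hippocampus libraries, from mouse fetuses at embryonic day 18.5 labelled WT, so that genotype and age were shared by every group. As background, enriched housing adds space, objects or company for the animals, and the series title calls the exposure prenatal and names the AHR-Src pathway. The labels give no strain, sex, mother or litter. Whether fetuses of one litter stand behind several libraries is unknown, and so is whether a cortex and a hippocampus library came from the same fetus. The p-values therefore cover no more than the scatter among these libraries. Of the 16250 gene symbols listed in any file, 13396 were listed in all 16, and 12672 of these had a mean of at least 1 FPKM (fragments mapped to a gene, divided by its transcript length and the depth of the library) and were tested.

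The libraries fell into 3 blocks that were compared within themselves: cortex replicates 1 to 3, cortex replicates 4 and 5, and hippocampus replicates 1 to 3. Each block had its own SH libraries. A single EE effect was fitted over the 3 blocks by limma, a linear model with a spread shared over genes, on log2(FPKM + 1). A log2 difference below is EE minus SH on that scale, which understates the change of genes with low values. P-values were adjusted by the Benjamini-Hochberg method over all 12672 genes, and a gene passed at an adjusted value of up to 0.05.

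Several of the gene families described below have well known roles in the fetal brain. Immediate early genes such as Egr1 and Fos encode transcription factors whose transcripts appear soon after a neuron is stimulated, without new protein synthesis. miR-124 is a microRNA abundant in neurons, cut from longer host transcripts, and the chemokine receptor CXCR4 guides migrating interneurons and Cajal-Retzius cells along its ligand CXCL12. Proteins with arrays of C2H2 zinc fingers form the largest family of mammalian transcription factors, many of them repressors of transposable elements.

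The depth recovered from the FPKM steps was 10970938 to 20760417 reads per library, and the median gene had 362 to 634 reads. Cortex SH replicate 3 stood apart with a summed FPKM of 511438, while the other 15 libraries summed to between 339726 and 396658. Marker genes separated the regions as labelled: Prox1, a factor of dentate granule neurons, measured 1.57 to 3.16 FPKM in cortex (n = 10) and 5.67 to 21.5 FPKM in hippocampus (n = 6). Zbtb20, a factor of hippocampal identity, measured 0.632 to 3.44 FPKM and 5.59 to 14.4 FPKM. Ttr, the defining transcript of choroid plexus epithelium, ranged from 33.6 to 16656 FPKM over the 6 hippocampus libraries and from 8.3 to 689 FPKM over the 10 cortex libraries. Y-linked transcripts were missing from 3 libraries: hippocampus EE replicate 3, hippocampus SH replicate 2 and cortex EE replicate 4. Xist, the transcript of the inactive X chromosome, measured 81.1 and 70.8 FPKM in the hippocampus libraries of these and 0.00849 to 0.107 FPKM in the 13 libraries with Y-linked transcripts. Cortex EE replicate 4 was unlike either kind, with Xist at 0.993 FPKM and a summed Y-linked level listed at 0. In bulk tissue, fewer cells of a type and less RNA per cell cannot be told apart.

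Over both regions, EE libraries had lower Mir124a-1hg, Cxcr4, Clk1 and 12 zinc finger genes, and higher Egr1 and Fos. In all, 42 genes of 12672 passed, or 0.331% of those tested. Of these, 4 were higher in EE (0.0316%) and 38 were lower (0.3%). At an unadjusted p under 0.05 there were 252 higher genes (1.99%) and 939 lower genes (7.41%), so the imbalance was not limited to the genes that passed. The plot of effect against p shows this lean to the lower side. Its size depended on the scaling of the values. At the same level there were 420 higher and 785 lower genes with median-of-ratios scaling, and 400 and 833 with quantile normalization. With the trend on length, GC content and mean level removed there were 484 and 884. Without cortex SH replicate 3, 227 genes passed, 7 higher and 220 lower, with all 42 among them. Without cortex replicates 4 and 5, 6 genes passed, and without the 3 libraries that lack Y-linked transcripts 18 passed. Of the 42 genes, 17 passed with each single library left out.

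**Figure D1:**
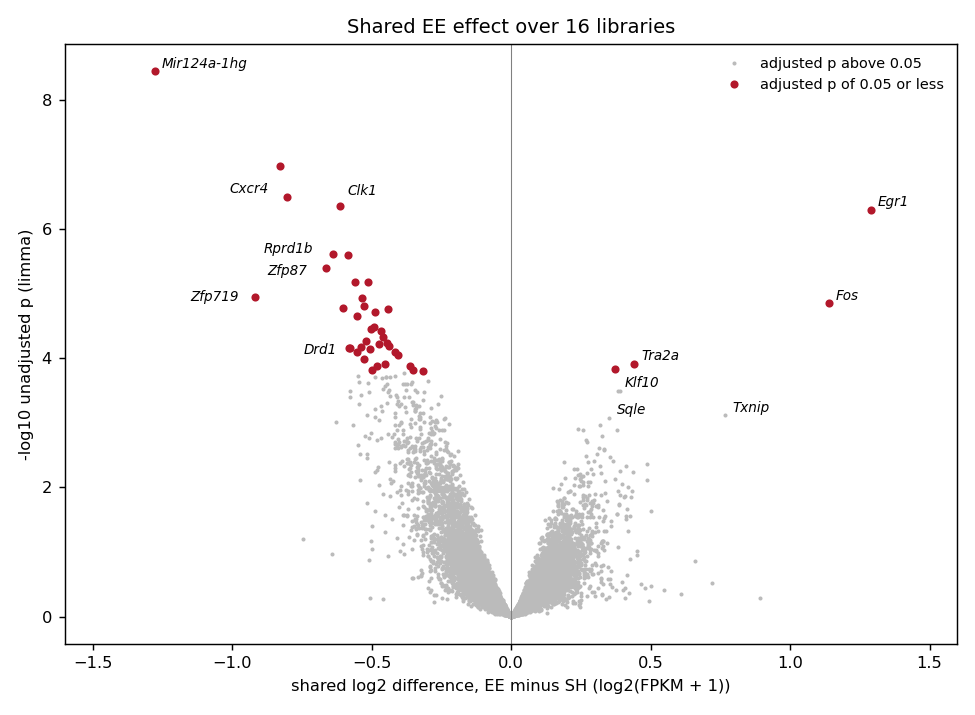
Each point is 1 of 12672 genes, with the shared log2 difference (EE minus SH, log2(FPKM + 1)) on the x axis and the negative log10 of the unadjusted limma p on the y axis. Red points are the 42 genes past the threshold, 38 of them left of 0, and the labelled Klf10, Sqle and Txnip lie below the threshold.

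The fit over both regions held more calls than either region alone on the same 12672 genes. Cortex by itself gave 1 gene, Mir124a-1hg (0.00789%), with 249 higher (1.96%) and 695 lower genes (5.48%) at an unadjusted p under 0.05. Hippocampus by itself gave 0 (0%), with 76 higher (0.6%) and 415 lower genes (3.27%) at that level. The difference of the EE effect between the regions passed for 0 genes (0%), with 62 positive (0.489%) and 27 negative (0.213%) at an unadjusted p under 0.05 and a smallest adjusted p of 0.998. Both shares are well below what a p of 0.05 gives when no gene differs. The test fits 1 cortex effect, so disagreement between the cortex blocks adds to its spread. It could therefore miss real differences, and 0 calls do not show that the regions respond alike. A test of any difference among the 3 blocks also passed for 0 genes (0%), with 1793 at an unadjusted p under 0.05 (14.1%). All 42 called genes had the same sign in the 3 blocks. The same 3 blocks chose these genes, and blocks that disagree add to the spread, so the choice itself favoured such agreement. Of all tested genes, 1312 had 1 sign in the 3 blocks on the higher side (10.4%) and 1831 on the lower side (14.4%).

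Mir124a-1hg, a noncoding RNA from which one miR-124 precursor is cut, had the smallest p. In cortex it measured 2.55, 2, 2.9, 5.83 and 4.39 FPKM in EE replicates 1 to 5 and 8.23, 7.66, 8.32, 15.8 and 13.5 FPKM in SH. In hippocampus it measured 5.22, 7.32 and 5.11 FPKM in EE and 10.1, 15.2 and 16.7 FPKM in SH. EE and SH did not overlap in any block, and levels in cortex replicates 4 and 5 were higher than in replicates 1 to 3 under both housings. The shared log2 difference was -1.28 ± 0.11 (SE; limma, adjusted p = 4.51e-05), with -1.39, -1.37 and -1.11 in the 3 blocks. The gene is a lincRNA at chr14:64587331-64593961 of mm10, on the plus strand, and its exons contain the 85 bases of the Mir124a-1 precursor.

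The other miR-124 host listed in all files, Mir124-2hg, had a shared log2 difference of -0.03 ± 0.15 (SE, adjusted p = 0.986). It measured 6.55 to 8.19 FPKM in EE cortex and 5.94 to 10.6 FPKM in SH cortex, so the ranges overlapped. Mature miR-124 was not measured. Of 16 known miR-124 targets tested, 0 passed and 11 were negative, with a median of -0.03 against -0.01 over all genes. The Notch ligand Jag1, the target with the smallest p, had -0.2 (adjusted p = 0.417).

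Cxcr4, the receptor of the CXCL12 migration signal, fell in both regions from different base levels. In cortex it measured 9.36, 11.7, 9.63, 9.38 and 12.6 FPKM in EE and 19, 18.5, 24.3, 19.8 and 20.7 FPKM in SH. Hippocampus libraries had 37.6, 47.8 and 34 FPKM in EE and 58.4, 57.9 and 69.6 FPKM in SH. No EE library reached an SH library of its region. The shared log2 difference was -0.8 ± 0.10 (SE, limma adjusted p = 0.00125). Ackr3, a scavenging receptor of the same ligand, and the ligand Cxcl12 had -0.15 and -0.13 (adjusted p = 0.817 and 0.903). Microglia also express Cxcr4: their summed markers ran from 173.5 to 237.5 FPKM in EE cortex and 149.5 to 358.7 FPKM in SH cortex, and 10 of the 16 markers tested were positive with 0 called. The median log2 difference of these markers was -0.31 in cortex 1-3, where Cxcr4 had -0.94, and 0.19 in cortex 4-5 and 0.2 in hippocampus, where Cxcr4 had -0.84 and -0.64. Their part in the Cxcr4 difference was not tested.

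The immediate early genes Egr1 and Fos rose, while most of their list did not pass. Egr1 measured 13, 16.9, 13.6, 13.3 and 11.6 FPKM in EE cortex and 5.04, 7.55, 3.94, 7.55 and 7.63 FPKM in SH cortex. In hippocampus it measured 14.1, 17.1 and 22.5 FPKM in EE and 4.51, 3.74 and 5.76 FPKM in SH. Egr1 separated the housings completely in each block, with a shared log2 difference of 1.29 ± 0.16 (SE, limma adjusted p = 0.00125). Its effect was 1.03 in cortex and 1.73 in hippocampus, and the difference between regions did not pass (0.7, limma unadjusted p = 0.0282, adjusted p = 0.998).

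Fos measured 8.31, 7.96, 5.53, 3.45 and 6.14 FPKM in EE cortex and 2.98, 3.17, 1.82, 3.22 and 3.26 FPKM in SH cortex. In hippocampus EE had 5.35, 6.53 and 6.97 FPKM and SH had 2.29, 0.643 and 1.63 FPKM. Cortex EE replicate 4 was close to its SH libraries, and the other EE libraries were well above theirs. The shared log2 difference was 1.14 ± 0.18 (SE, limma adjusted p = 0.0135), with 0.41 in cortex replicates 4 and 5 against 1.18 and 1.58 in the other blocks.

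Of 18 immediate early genes tested, 2 passed, both higher, and 12 were positive, with a median of 0.05. Over all tested genes 0.331% passed and 45.8% were positive. The block medians of the list were 0.05 in cortex replicates 1 to 3, -0.05 in cortex replicates 4 and 5 and 0.19 in hippocampus. Dusp1, a phosphatase of MAP kinases, had 0.32 and did not overlap in any block, but its adjusted p was 0.102. Klf4 had 0.49 (adjusted p = 0.191) and Jun, the partner of Fos in AP-1, had 0.23 (adjusted p = 0.231). Arc, which encodes a synaptic plasticity protein, went the other way in cortex. It measured 1.24, 1.93, 1.61, 0.838 and 1.24 FPKM in EE cortex and 2.25, 2.12, 2.27, 2.79 and 2.52 FPKM in SH cortex. In hippocampus it measured 1.45, 1.46 and 2.33 FPKM in EE and 1.2, 1.34 and 1.38 FPKM in SH. Arc had the smallest p of all genes for the difference between regions (0.76, limma adjusted p = 0.998), and it did not pass.

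**Figure D2:**
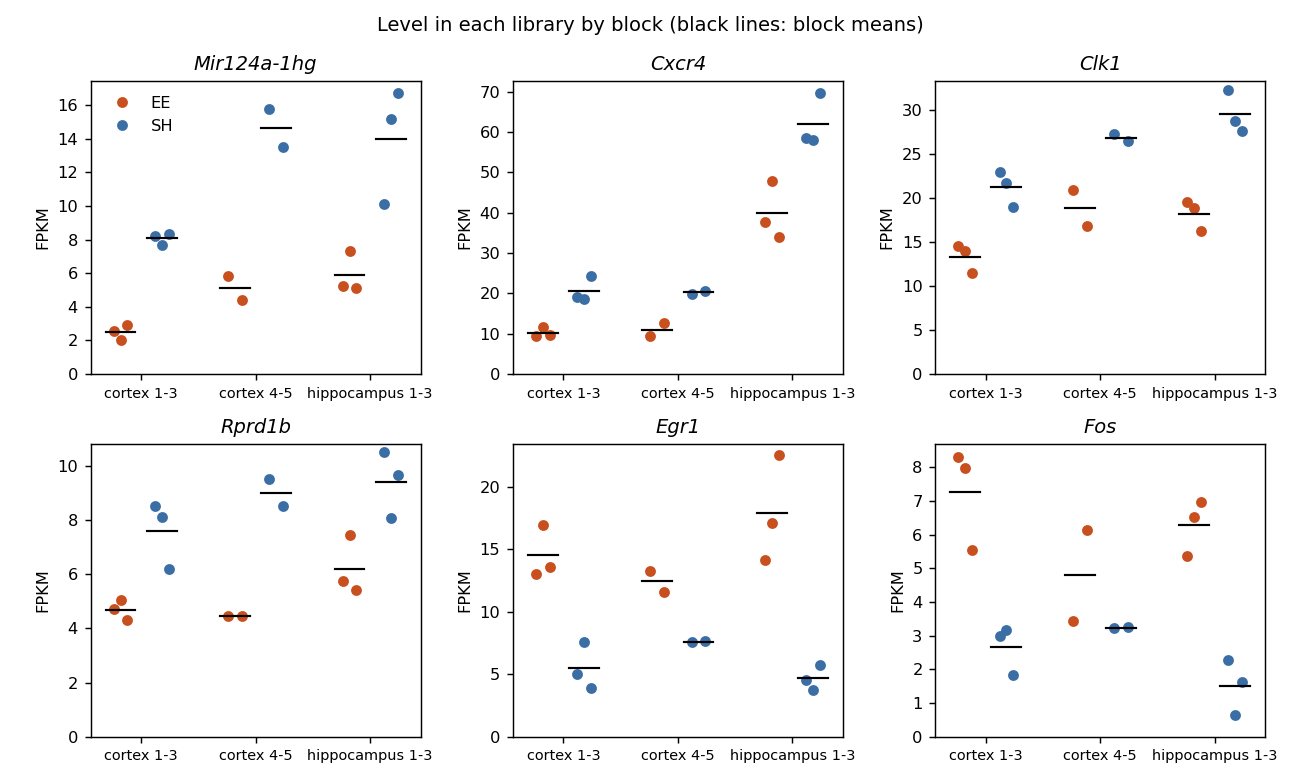
FPKM (y axis, from 0) of 6 genes in each of the 16 libraries, by block on the x axis. EE libraries are orange, SH libraries are blue, and black lines are block means. In all 6 panels the EE and SH points of a block do not overlap, although Fos in cortex 4-5 comes close, with 3.45 against 3.26 FPKM.

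The promoter windows of the 2 called higher genes that the RefSeq table holds, Fos and Tra2a, are shown with the cAMP response element in mind, the site bound by CREB in stimulated neurons. The sequences are the 250 bases before the annotated start on GRCm38.p6, in the direction of the gene, and capitals mark TGACG on either strand (CGTCA when it lies on the other strand), which includes the palindrome TGACGTCA. Fos is at chr12:85473640-85473889, on the plus strand, and Tra2a is at chr6:49264053-49264302, on the minus strand.
Fos: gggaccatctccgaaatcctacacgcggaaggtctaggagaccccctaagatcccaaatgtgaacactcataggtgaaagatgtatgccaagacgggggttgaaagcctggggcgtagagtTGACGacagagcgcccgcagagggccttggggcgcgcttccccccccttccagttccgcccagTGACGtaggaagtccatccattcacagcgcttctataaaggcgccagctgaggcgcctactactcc
Tra2a: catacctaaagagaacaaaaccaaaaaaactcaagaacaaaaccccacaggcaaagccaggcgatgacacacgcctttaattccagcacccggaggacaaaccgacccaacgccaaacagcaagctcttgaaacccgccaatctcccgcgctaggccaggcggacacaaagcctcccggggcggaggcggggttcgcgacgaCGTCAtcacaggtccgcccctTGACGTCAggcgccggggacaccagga

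The Fos window holds TGACG at 129 and 66 bases before the start. The Tra2a window holds the palindrome at 27 bases before the start and another CGTCA at 48. Over the RefSeq windows of 300 bases, which add the 50 bases after the start, TGACG on either strand was in 10 of 13 immediate early genes (76.9%), in 14 of 28 called lower genes (50%), in 6 of 12 cholesterol genes (50%), in 35.9% of the 9640 tested genes with a window, and in 23% of all 27025 windows. The letters were thus found among genes lower in EE as well as among those higher. The palindrome was in 3.69% of the tested genes with a window, in 1 of 28 called lower genes (3.57%) and in 2.03% of all windows. TNGCGTG, a core of the AHR binding site, was in 1 of 28 called lower genes with a window (3.57%) and in 9.69% of the tested genes. These are letter matches in a short window and not binding sites.

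Splicing regulators were called in both directions. Clk1, a kinase that phosphorylates SR splicing factors, measured 14.6, 14, 11.5, 21 and 16.8 FPKM in EE cortex and 23, 21.7, 19, 27.3 and 26.5 FPKM in SH cortex. In hippocampus it had 19.6, 18.9 and 16.3 FPKM in EE and 32.3, 28.8 and 27.6 FPKM in SH. The groups did not overlap in any block, and the log2 difference was -0.61 ± 0.07 (SE, limma adjusted p = 0.00125). The other CLK kinases Clk2, Clk3 and Clk4 had -0.15, -0.03 and -0.08, with adjusted p-values of 0.815 to 0.977.

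Tra2a, a splicing activator of the same SR-related class, rose. It measured 33.9, 27.5, 33.2, 37.8 and 42.7 FPKM in EE cortex and 25.5, 27.8, 19.3, 30 and 24.7 FPKM in SH cortex. In hippocampus it had 38.6, 40.4 and 39.7 FPKM in EE and 31.3, 32.3 and 24.2 FPKM in SH. One EE library of cortex fell within its SH range, and the shared log2 difference was 0.44 ± 0.09 (SE, limma adjusted p = 0.0429), a call that held with 5 of the 16 libraries left out singly. Of 27 genes of CLK kinases and SR factors, these 2 passed, 1 in each direction, 15 were positive and the median was 0.01. Cwc22, a spliceosome protein that loads the exon junction complex, fell from 7.68 to 11.2 FPKM in SH cortex to 4.36 to 6.47 FPKM in EE cortex, and from 9.42 to 12.3 FPKM to 5.75 to 7.84 FPKM in hippocampus (log2 difference -0.59 ± 0.08 SE, limma adjusted p = 0.00455).

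Zinc finger genes made up the largest named group among the lower calls. Of 371 tested genes with Zfp, Zkscan, Zscan or Zbtb names, 12 were called lower, which is 3.235% of them against 0.3% of all genes tested, and 0 were called higher. Among the 371, 298 were negative (80.32%), with a median of -0.15, against 54.19% and -0.01 over all genes tested. The 12 consist of 10 Zfp genes, Zkscan14 and Zscan22. For the Zfp-named list alone, 250 of 309 genes were negative and the median was -0.16, with block medians of -0.04, -0.36 and -0.21.

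Zfp719 had the largest difference of these genes. It measured 2.26, 2.07, 1.18, 0.992 and 2.03 FPKM in EE cortex and 3.93, 3.41, 2.42, 4.47 and 4.61 FPKM in SH cortex. In hippocampus it had 1.58, 2.59 and 1.2 FPKM in EE and 5.21, 3.68 and 5.57 FPKM in SH. The housings did not overlap in any block, and the log2 difference was -0.92 ± 0.15 (SE, limma adjusted p = 0.0121). Zfp87 measured 3.68 to 6.08 FPKM in EE cortex and 7.01 to 9.71 FPKM in SH cortex, and 4.54 to 5.22 FPKM and 7.28 to 8.44 FPKM in hippocampus. Its log2 difference was -0.67 ± 0.10 (SE, adjusted p = 0.00625). Zfp830, a zinc finger protein linked to DNA damage and splicing, had -0.51 (adjusted p = 0.00841), with 3.1 to 3.9 FPKM in EE cortex and 4.89 to 5.82 FPKM in SH cortex.

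Zfp108, Zfp101, Zfp85, Zfp58, Zkscan14 and Zscan22 had log2 differences from -0.54 to -0.46 and adjusted p-values from 0.0121 to 0.0299. Among them Zkscan14 overlapped between the housings in hippocampus, where its effect was -0.26 against -0.72 and -0.61 in the cortex blocks. Zfp58, Zfp87 and Zfp85 lie in a zinc finger cluster between positions 67490167 and 67755228 of chromosome 13. Genes of this family have near-identical repeats, so reads may be shared between them. Of the exonic bases of Zfp58, 50.2% are also annotated to the neighbouring Gm26965, on the same strand, and its value is therefore uncertain. The library means of the Zfp-named list were lower in every EE library than in every SH library in cortex replicates 4 and 5 and in hippocampus, but in cortex replicates 1 to 3 the lowest was cortex SH replicate 3.

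**Figure D3:**
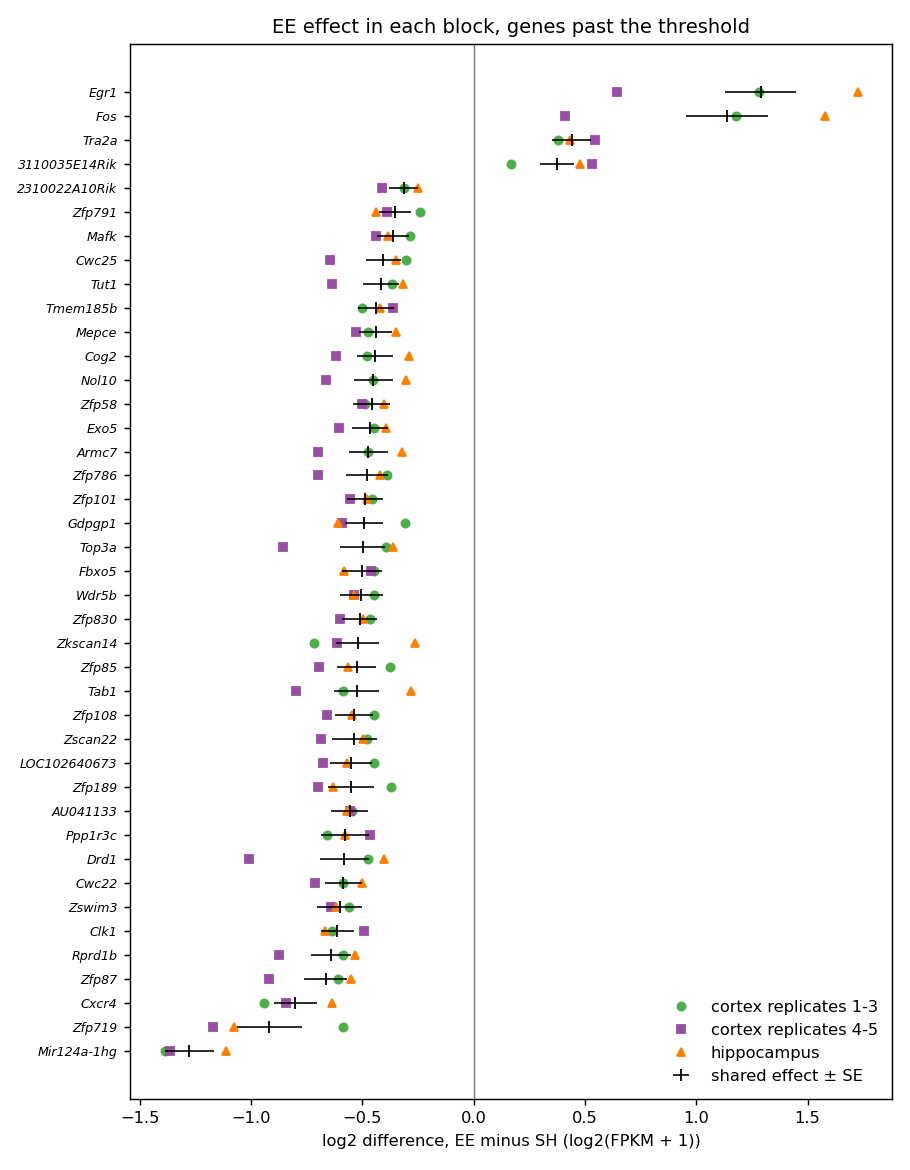
Log2 difference (EE minus SH, log2(FPKM + 1), x axis) of 41 of the 42 called genes in each of 3 blocks, with the shared effect and its SE as black bars. All 41 genes have their 3 block values on one side of 0, with 4 genes on the higher side. The genes were called in these same libraries, which favours such agreement.

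Several called genes act on transcription, RNA or the cell cycle. Rprd1b, which binds the C-terminal domain of RNA polymerase II, measured 4.71, 5.04, 4.32, 4.45 and 4.44 FPKM in EE cortex and 8.53, 8.11, 6.18, 9.49 and 8.52 FPKM in SH cortex. In hippocampus it had 5.75, 7.45 and 5.42 FPKM in EE and 10.5, 8.08 and 9.65 FPKM in SH. It did not overlap in any block (log2 difference -0.64 ± 0.09 SE, limma adjusted p = 0.00455). Mepce, which caps and stabilises 7SK RNA, measured 13.4 to 16.2 FPKM in EE cortex and 18.4 to 25.6 FPKM in SH cortex, and 15.6 to 16.7 FPKM and 20.4 to 21.2 FPKM in hippocampus (-0.44, adjusted p = 0.0135). Fbxo5, the inhibitor of the anaphase-promoting complex also known as EMI1, had 2.08 to 2.61 FPKM in EE cortex and 2.68 to 4.27 FPKM in SH cortex, and 3.03 to 3.44 FPKM and 4.7 to 6.7 FPKM in hippocampus (-0.5, adjusted p = 0.022). Exo5, a DNA repair exonuclease, had -0.47 (adjusted p = 0.0224).

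Receptor, metabolic and trafficking genes were also among the lower calls. Drd1, the D1 dopamine receptor, measured 1.74, 1.95, 1.92, 2.01 and 1.59 FPKM in EE cortex and 2.9, 3.71, 2.46, 4.40 and 4.87 FPKM in SH cortex. Hippocampus had 0.412, 0.214 and 0.864 FPKM in EE and 1.03, 0.867 and 0.94 FPKM in SH. The housings did not overlap in any block, although the hippocampal levels were near or below 1 FPKM (log2 difference -0.58 ± 0.11 SE, limma adjusted p = 0.0299). Drd1 is also a striatal marker. Of 16 striatal genes tested 15 were negative, against 54.19% of all tested genes, and 1 was called, with a median of -0.09. Their summed level was 139.8 to 200.5 FPKM in EE cortex and 172.3 to 218.3 FPKM in SH cortex, and 30.9 to 40.3 FPKM and 26 to 60.6 FPKM in hippocampus. The part of striatal tissue in the Drd1 value was not tested, and the call held with 5 of the 16 libraries left out singly. Ppp1r3c, a glycogen-targeting subunit of protein phosphatase 1, measured 4.13 to 6.31 FPKM in EE cortex and 7.36 to 9.49 FPKM in SH cortex (-0.58, adjusted p = 0.0299), and Cog2, a subunit of the Golgi tethering complex COG, had -0.44 (adjusted p = 0.0299).

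Other lower calls among the 30 genes with the smallest p were AU041133, Zswim3, LOC102640673, Gdpgp1, Armc7, Tmem185b and Wdr5b, with log2 differences from -0.6 to -0.44. The 12 calls after these, listed here after their values were seen, were Zfp189, Tut1, Cwc25, Tab1, Nol10, Tra2a, Mafk, Zfp786, 3110035E14Rik, Top3a, Zfp791 and 2310022A10Rik, and their adjusted p-values ran from 0.032 to 0.0469. The next gene by p was Lrif1, which did not pass (log2 difference -0.38, adjusted p = 0.0501).

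Counting libraries without a model, 12 genes (0.0947%) were higher and 94 genes (0.742%) were lower in every EE library than in every SH library of the same block. Of the 42 called genes 35 were among them, in the same libraries that gave the calls. On the higher side these included, below the threshold, Brinp3, Dusp1, Ppp1r21, Pim1, Tardbp and Zfp207. Brinp3, of a family of proteins made by neurons, measured 6.91 to 8.68 FPKM in EE cortex and 4.59 to 7.37 FPKM in SH cortex, with the cortex ranges overlapping across blocks but not within them, and 3.81 to 4.82 FPKM and 2.56 to 3.43 FPKM in hippocampus (0.39, limma adjusted p = 0.0599). Klf10, a TGF-beta-induced factor, had 0.38 (adjusted p = 0.0599). Both passed with median-of-ratios scaling (adjusted p = 0.0445 each). Txnip, a glucose-induced protein that binds thioredoxin, had 0.77 ± 0.19 (SE, adjusted p = 0.0905). In hippocampus, Txnip measured 59.1, 70.4 and 61.7 FPKM in EE and 72.1, 25.4 and 25.6 FPKM in SH, and the SH library at 72.1 FPKM was also the one with the highest Ttr. Without that library the Txnip difference was 0.92 (limma adjusted p = 0.00891). Txnip passed with no other single library left out, and it did not pass with a term for log2 Ttr. It also passed with array weights (0.7, limma adjusted p = 0.00911).

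Each block was also left out in turn, and the 50 genes with the smallest p in the other blocks were looked up in it. With cortex replicates 1 to 3 left out, 44 of 50 genes (88%) had the same sign there, against 35.8% of all tested genes. With cortex replicates 4 and 5 left out, the count was 48 of 50 (96%) against 46.2%, and with hippocampus left out it was 50 of 50 (100%) against 53.1%. Of the 50, only 3, 3 and 2 were higher, while the shares over all genes cover both directions. The median size of the chosen effects was 0.62, 0.48 and 0.54. In the block left out, the median in the chosen direction was 0.17, 0.56 and 0.4. The fits of the other 2 blocks called 2, 6 and 1 genes. Over all 12672 genes the block effects themselves ran with Pearson correlations of -0.4 between both cortex blocks, -0.23 between cortex replicates 1 to 3 and hippocampus, and 0.6 between cortex replicates 4 and 5 and hippocampus. The blocks hold separate libraries, but all genes of a block were measured in the same few libraries, so the correlations are given as a description. Agreement in direction was high among the genes with small p and low over the transcriptome.

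The AHR and Src transcripts named in the series title did not pass. Ahr, the ligand-activated receptor, measured 0.768 to 1.08 FPKM in EE cortex and 0.856 to 1.61 FPKM in SH cortex, with 0.975 to 1.25 FPKM and 1.22 to 1.41 FPKM in hippocampus (log2 difference -0.12, limma adjusted p = 0.711). Among its targets, Cyp1b1 had 0.03 (adjusted p = 0.986) and Tiparp -0.17 (adjusted p = 0.651). Of 9 AHR pathway genes 0 passed, with 4 positive and a median of -0.01. Src, the kinase, measured 25.6 to 31 FPKM in EE cortex and 24.2 to 31.4 FPKM in SH cortex (-0.03, adjusted p = 0.976), and of 16 genes of the Src family and its partners 0 passed, with 7 positive and a median of -0.02. RNA levels do not measure receptor or kinase activity.

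The highest list medians among those with the same sign in each block belonged to cholesterol synthesis and the mitochondrial genome. Of 18 cholesterol genes 15 were positive with a median of 0.26, against 45.8% positive and a median of -0.01 over all genes, and 0 passed. Sqle, squalene epoxidase, measured 64, 54.6, 67.4, 76.7 and 62.5 FPKM in EE cortex and 50, 54.5, 47.5, 43.8 and 42.6 FPKM in SH cortex, so the lowest EE library, at 54.6 FPKM, was level with the highest SH library, at 54.5 FPKM (shared log2 difference 0.35, adjusted p = 0.0931). Cyp51 and Nsdhl, which act later in the pathway, had 0.33 each (adjusted p = 0.148 and 0.15). Among the negative genes, Msmo1 and Sc5d had -0.15 and -0.1. All 12 of 12 mitochondrial transcripts were positive with a median of 0.17 and 0 passed. The median was 0.09 with limma-voom on recovered reads. Their summed level was 21799.3 to 25510.8 FPKM in EE cortex and 15340.6 to 25128 FPKM in SH cortex. In hippocampus it was 14818 to 21465.5 FPKM and 13743.8 to 18975.3 FPKM, so the ranges overlapped in both regions. ND2, a complex I subunit, had 0.28 (adjusted p = 0.553).

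Hmgcs1, the synthase that opens the pathway, had a shared log2 difference of 0.28 (adjusted p = 0.344). Its promoter window holds 2 elements typical of sterol-regulated genes, the CCAAT box bound by NF-Y and TCACNCCAC, a form of the sterol regulatory element. The 250 bases before the start lie at chr13:119690101-119690350 of GRCm38.p6 on the plus strand, with both elements in capitals and CCAAT read from the other strand as ATTGG.
Hmgcs1: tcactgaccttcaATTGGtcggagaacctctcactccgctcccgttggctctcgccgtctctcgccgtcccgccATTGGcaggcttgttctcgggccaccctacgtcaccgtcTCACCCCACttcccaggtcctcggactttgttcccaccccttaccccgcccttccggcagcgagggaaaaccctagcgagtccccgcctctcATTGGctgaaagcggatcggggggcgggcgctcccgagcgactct

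CCAAT on either strand was in the RefSeq windows of 12 of the 12 cholesterol genes that had one, against 43% of tested genes and 41.1% of all windows. TCACNCCAC was in 1 of the 12 and in 1.44% of all windows. The window count describes letters and does not show that a factor was bound.

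Proliferation genes leaned lower without single calls. In the G2 and M phase list 22 of 22 genes lay below 0, with a median of -0.13, and 0 passed. Over all tested genes 54.19% were negative, the median was -0.01 and 0.331% passed. The summed level of the list was 101.7 to 148.8 FPKM in EE cortex and 126.8 to 161.7 FPKM in SH cortex. In hippocampus it was 186 to 258.2 FPKM and 202.2 to 328.4 FPKM, so the ranges overlapped in both regions. Aurka, a mitotic kinase, had the smallest p of the list. Aurka measured 2.73 to 3.92 FPKM in EE cortex and 4.44 to 5.2 FPKM in SH cortex, which do not overlap, and 5.08 to 7.5 FPKM and 6.62 to 10.9 FPKM in hippocampus, which do (-0.41, limma adjusted p = 0.111). Of 21 S phase genes 18 were negative with a median of -0.12 and 0 passed, with Mcm7, a helicase subunit, at -0.2 (adjusted p = 0.204). The S phase median was -0.23 in cortex replicates 1 to 3 and -0.01 in hippocampus, where all tested genes also had -0.01.

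Interferon and circadian clock genes had other low medians. Of 11 interferon response genes 9 were negative with a median of -0.17, and of 15 clock genes 12 were negative with a median of -0.14. None of either list passed, and 54.19% of all tested genes were negative. Per2, a repressor of the clock, had -0.52 (adjusted p = 0.18), and its EE effect was -1.2 in cortex replicates 4 and 5 against -0.14 and -0.45 elsewhere. Without cortex SH replicate 3 it passed, at -0.62 (adjusted p = 0.0214). Cry1, its partner, had -0.36 (adjusted p = 0.254). Radial glia genes (18 tested, 11 positive, median 0.05) and BMP and Id genes (16 tested, 10 positive, median 0.02) had 0 calls each. Choroid plexus genes had 7 of 8 positive and a median of 0.46, but block medians of -0.12, 0.59 and 0.85, with summed levels of 79.5 to 17166.9 FPKM in SH hippocampus and 121.4 to 10639.2 FPKM in EE hippocampus. Ribosomal protein genes turned between blocks, with medians of -0.67, 0.38 and 0.16 over 75 genes.

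**Figure D4:**
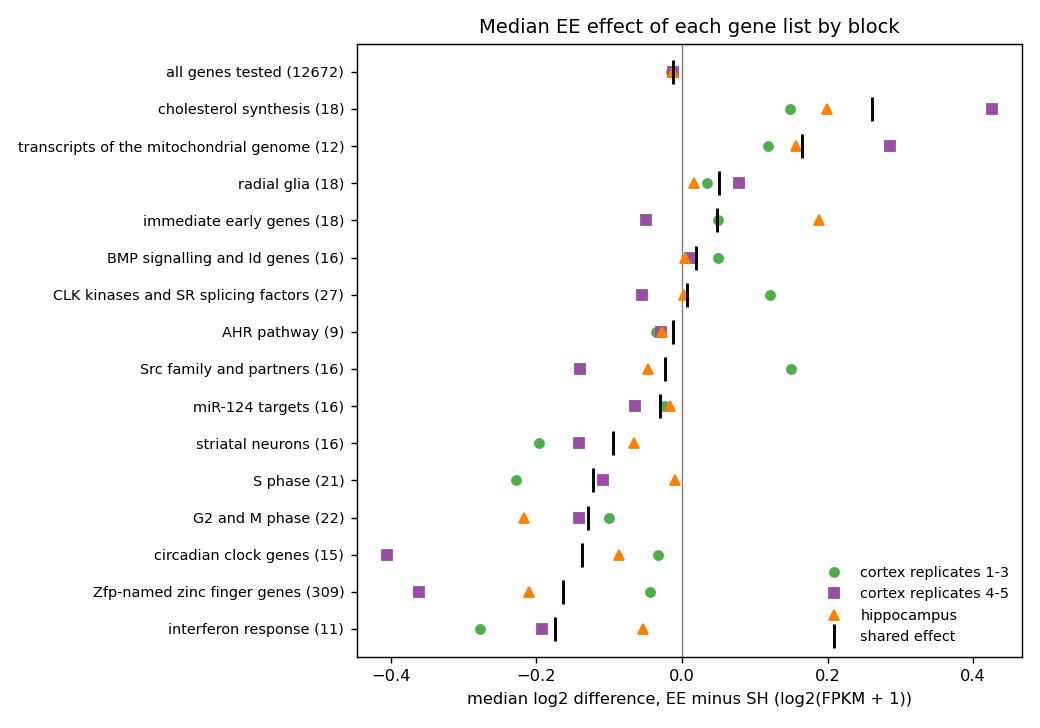
Median log2 difference (EE minus SH, log2(FPKM + 1), x axis) of each gene list in 3 blocks and in the shared fit, with the number of tested genes in brackets. Cholesterol synthesis lies to the right in each block, and the interferon, zinc finger, clock, G2 and M, S phase and striatal lists lie to the left.

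**Figure D5:**
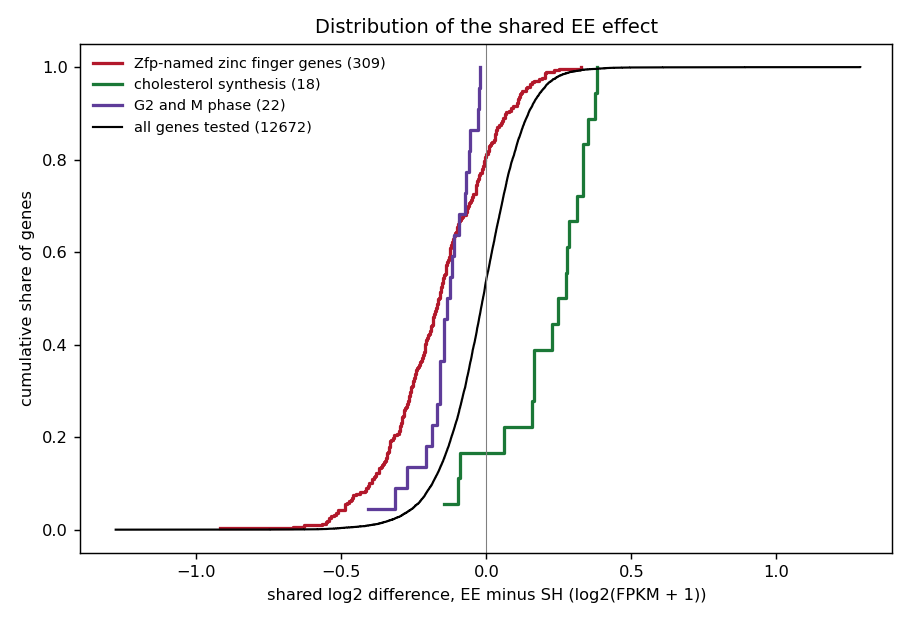
Cumulative share of genes (y axis) by shared log2 difference (EE minus SH, log2(FPKM + 1), x axis) for 3 lists and for all 12672 genes. The zinc finger curve, with 250 of 309 genes negative, and the G2 and M curve, with 22 of 22, run left of the black curve, and the cholesterol curve, with 15 of 18 positive, runs right of it.

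The called genes differed from all tested genes in exon number, which the fit did not use, and in level, which it did. They had a median of 4 annotated exons against 9 over all tested genes, and 27 of 41 with an exon count (65.85%) had 4 or fewer, against 22.77% of all. Leaving aside zinc finger names, 16 of 29 (55.2%) had 4 or fewer. The median level of the called genes was 4.29 FPKM against 9.68 FPKM over all genes. Level entered the fit through the filter, the log2(FPKM + 1) scale and the spread, which was fitted as a trend on level. Over all protein-coding genes the median shared log2 difference ran from -0.01 for 307 genes with 1 exon to -0.04 for 1686 genes with 3 to 4 exons and 0.03 for 2590 genes with 17 or more. Within blocks the medians went in opposite directions: from 3 to 4 exons to 17 or more, they went from -0.17 to 0.17 in cortex 1-3, from 0.04 to -0.11 in cortex 4-5 and from 0.01 to -0.05 in hippocampus. Of the 41 called genes with a position, 7 have exons that overlap an exon on the opposite strand, over 1.6% to 14.4% of their bases, among them Rprd1b, Zfp85, Armc7, Tmem185b and Wdr5b. The labels do not say that the libraries keep strand, so reads from such a pair could not be told apart.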

How the data were processed

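RNA from 16 libraries was extracted with Trizol and made into libraries with a NEBNext Ultra kit, per the labels' protocols. The authors deposited 1 table of gene symbols and FPKM values per library, made against mm10 according to the submitters' processing notes, which list StringTie 1.3.4d, HISAT2 2.0.4, cutadapt 1.9, DESeq2 and edgeR. The role of each tool and the annotation are not given in the sources used here, and neither is the rule for unlisted genes, which were treated as missing.

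The deposited FPKM values were tested without further scaling as log2(FPKM + 1) in limma 3.58.1 (R 4.3.3; lmFit, eBayes with trend), two-sided, over genes listed in all files with a mean of at least 1 FPKM, with terms for 3 blocks. Whole reads were recovered from the FPKM steps at a tolerance of 0.003 reads for 99.89% to 99.93% of genes, which hold 87.22% to 91.84% of summed FPKM. They served for depth and for limma-voom. The fit and the recovery were tested on simulated data.

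Named genes were at most 30 past the threshold, the 12 higher and 12 lower with the smallest p, fixed genes of the pathway and activity response, up to 4 per list, 5 per interaction and up to 10 without overlap. Jun, Msmo1, Sc5d, Hmgcs1, Lrif1, Clk2, Clk3 and Clk4 fall outside this rule and were added with their values known, and some genes that the rule selects are not reported here. Members and the 53 lists were chosen with earlier results of these data known, so lists are described by counts and medians. Positions and exons come from GENCODE M21 (mm10) and promoters from RefSeq (GRCm38.p6). Drawings used matplotlib 3.10.9. Alternatives covered pseudocounts, filters, scaling, trends, voom, blocks, sex, weights and each library left out. Added after the data were seen were a term for log2 Ttr, leaving out libraries without Y-linked transcripts, and leaving out cortex SH replicate 3 with median-of-ratios scaling.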

Additional observations from a re-analysis of the deposited data

Results flagged for a closer look

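In 156 groups of 5 cortex libraries (78 genes under each housing), 6 groups had 1 value far from the other 4, with some libraries flagged for more than 1 gene. Chance flags about 1 in 20 such groups, and these 6 are no more than that rate gives. Cortex SH replicate 3, the library with the highest summed FPKM, was the lowest for Fos at 1.82 FPKM, with the others at 2.98 to 3.26 FPKM. It was also the highest for Mepce, at 25.6 FPKM against 18.4 to 20.1 FPKM. Cortex EE replicate 4, which lacks Y-linked transcripts, was the highest for Zfp207 at 30.7 FPKM against 22.2 to 23.7 FPKM, and the lowest for Ackr3 at 8.63 FPKM against 11.9 to 13 FPKM. Cortex EE replicate 2 was the highest for Gdpgp1, at 1.41 FPKM against 0.819 to 0.989 FPKM, and cortex SH replicate 4 the highest for Ahr, at 1.61 FPKM against 0.856 to 1.05 FPKM. The part of these libraries in the shared effect is given by the values with each library left out.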

How the results depend on the processing

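All 42 called genes kept their sign in the 19 other settings and with each of the 16 libraries left out, wherever they were tested. Mir124a-1hg, Cxcr4, Clk1 and Egr1 passed in each of these fits, Fos in all but the replicate block among the fits that tested it (it was below the mean of 5 FPKM), and 17 of the 42 with each library left out.

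The count of 42 became 11 with a mean of at least 5 FPKM (19 of the 42 were tested), 69 with the trend on length, GC content and mean level removed, 102 with equal weight for the 3 blocks, 625 with array weights, 6 without cortex replicates 4 and 5, 18 without the libraries that lack Y-linked transcripts, and 110 without cortex SH replicate 3 and with median-of-ratios scaling. The cause was not tested. Limma-voom on recovered reads called 35, 34 of them shared. With single libraries left out the count ran from 17 to 227. It was 227 without cortex SH replicate 3, 17 without cortex EE replicate 3 or SH replicate 4, 18 without cortex EE replicate 4, SH replicate 1 or SH replicate 5, 25 without cortex EE replicate 5, and 22, 23 and 19 without hippocampus EE replicate 1, EE replicate 3 and SH replicate 3. The 106 genes without overlap became 62 at 5 FPKM, 277 without the libraries that lack Y-linked transcripts and 235 without cortex SH replicate 3 and with scaling, and ran from 111 to 293 with single libraries left out. Where values are not rescaled, leaving out a library can only keep or raise this count, so the direction of those changes was fixed by the rule. Both interaction tests stayed at 0 calls in each fit run.

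A replicate block, with 1 term for each pair of equal number, called 5 genes. The libraries share only a number in the labels, and correlations of deviations between EE and SH of equal number were not all over 0.1: they were 0.0892 to 0.406 in cortex and -0.17, -0.556 and 0.364 in hippocampus. Between regions, 5 of 6 were positive, from -0.029 to 0.273. Whether the numbers mark a shared litter or day is therefore not known. Of the libraries, 2 of 10 cortex and 2 of 6 hippocampus libraries correlated best with their own number, about as many as a random choice of number would give. For this count, cortex deviations were taken from the mean of all 5 libraries of a housing, across both cortex blocks. Across regions, 2 of 6 equal numbers differed in Y-linked transcripts. A fit that let libraries of equal number and housing correlate across regions estimated that correlation at 0.0647 and called 36 genes, all among the 42.

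The values of 3 genes near 0 changed sign. Mir124-2hg was at 0.0125 with quantile normalization, 0.0108 without cortex replicates 4 and 5, 0.0392 with the trend removed, 0.0628 with array weights, 0.0010 with a term for Ttr and 0.0714 without cortex SH replicate 3 and with scaling, and ran from -0.124 to 0.0390 with single libraries left out. Src was at 0.0244 without cortex replicates 4 and 5 and 0.0640 without the libraries that lack Y-linked transcripts, and ran from -0.0675 to 0.00986. Cyp1b1 was at -0.0114 with array weights, -0.0041 without cortex replicates 4 and 5 and -0.0191 with a term for Ttr, and ran from -0.0392 to 0.126. The medians of the cholesterol, mitochondrial, immediate early, zinc finger, G2 and M, S phase, interferon, clock and striatal lists kept their sign in 35 of 35 fits, the AHR median in 27 and the Src median in 29. These are medians of the shared effect, and the immediate early median was -0.05 within cortex replicates 4 and 5. Genes near 1 FPKM have few reads.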
